A study of Mus musculus with 6 samples.

Results

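The small leucine-rich proteoglycans are a family of secreted matrix proteins, and 10 of their genes (Kera, Lum, Dcn, Fmod, Bgn, Ogn, Aspn, Prelp, Omd and Epyc) were taken by symbol from the 22692 genes listed for each library. RNA was sequenced from whole eyes of female C57BL/6J mice, an inbred laboratory strain, aged 4 weeks. Eyes were taken 9.0 h after light onset or 1.5 h after light onset, with 3 libraries at each time, and no genotype or treatment other than the time separated the groups. Each library was made from the pooled RNA of 5 mice, so a library is an average over animals. No label states that replicate pools came from separate animals. The p-values given here therefore speak of variation among libraries, part of which can be technical.

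Proteoglycans of this family carry a curved domain of leucine-rich repeats that binds collagen fibrils and limits how thick the fibrils grow. Members of class I (decorin, biglycan) carry chondroitin or dermatan sulfate chains, class II members such as lumican, keratocan and fibromodulin carry keratan sulfate, and class III holds osteoglycin and epiphycan. In the cornea, keratocan and lumican are known for the even fibril spacing on which transparency depends, and biglycan, lumican, fibromodulin and decorin are also made in the sclera. Whole-eye RNA mixes these tissues with lens, retina, pigmented epithelium and attached muscle and tendon.

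Values are RPKM, reads scaled to gene length and to the size of the library, as the authors deposited them. The total reads behind a library, estimated from the step between low values, lay between 24040000 and 31700000 at 9.0 h. At 1.5 h it was 28960000 in replicate 1, 12760000 in replicate 2 and 13000000 in replicate 3. Markers of the labelled tissue were present in every library, among them lens and corneal epithelial genes whose summed levels are given below. Both extremes lay at 1.5 h in 7 of the 10 genes studied here, whereas Fmod, Bgn and Prelp were highest in 9.0 h replicate 1. All 10 members had their lowest value in 1.5 h replicate 1, where 27.0% of the 13490 tested genes had theirs. Their median deviation there was −0.81 on the log2(RPKM + 0.1) scale, against −0.02 for all tested genes. In 1.5 h replicate 2, 7 members had their highest value, where 33.7% of tested genes had theirs. The median deviation there was 0.51, against 0.065 for all tested genes. Results are given with and without 1.5 h replicate 1, and leaving out replicate 2 is described below.

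In the mouse the members lie in clusters. By the order of protein-coding genes in RefSeq's GRCm38.p6 annotation, Dcn, Lum, Kera and Epyc follow each other on chromosome 10 with no other protein-coding gene between them. Aspn, Omd and Ogn do so on chromosome 13, next to the related gene Ecm2, and Prelp and Fmod on chromosome 1, next to Optc. Bgn stands alone on chromosome X. The chromosome 13 genes lie within the body of Cenpp, a centromere gene on the opposite strand, which had 0.905 to 1.67 RPKM at 9.0 h and 0.915 to 1.53 RPKM at 1.5 h and shared 7 exon bases with Aspn. Whether reads were counted by strand is not given in the sources used here. Epyc shares 1041 exon bases with the opposite-strand gene Gm10754, which had 0.0203 to 0.096 RPKM at 9.0 h and 0 to 0.105 RPKM at 1.5 h. Prelp shares 350 exon bases with Gm15851, and its values are uncertain to that extent. Apart from these overlapping genes, no member had a match of at least 95% identity over at least 200 nt in a transcript of another gene.

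The starts of 4 members are shown because Fmod and Bgn had the highest log2 fold changes of the 10 and Ogn and Aspn were the pair that varied most alike. Each sequence is the 250 bases before the annotated start, 5′ to 3′ on the plus strand, from RefSeq (build GRCm38.p6). Capitals mark matches to 5 motifs searched on both strands: the E-box with the letters CACGTG, the D-box with the letters TTATGNAA, the TATA box with the letters TATAAA, the CCAAT box with the letters of its name, and the GC box with the letters GGGCGG. In Ogn 2 TATA box matches on opposite strands overlap.
Fmod (fibromodulin, chr1:134037004-134037253): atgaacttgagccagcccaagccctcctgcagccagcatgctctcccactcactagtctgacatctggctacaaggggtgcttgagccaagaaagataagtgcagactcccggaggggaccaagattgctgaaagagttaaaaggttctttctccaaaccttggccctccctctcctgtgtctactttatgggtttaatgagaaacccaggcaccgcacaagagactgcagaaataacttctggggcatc
Bgn (biglycan, chrX:73483351-73483600): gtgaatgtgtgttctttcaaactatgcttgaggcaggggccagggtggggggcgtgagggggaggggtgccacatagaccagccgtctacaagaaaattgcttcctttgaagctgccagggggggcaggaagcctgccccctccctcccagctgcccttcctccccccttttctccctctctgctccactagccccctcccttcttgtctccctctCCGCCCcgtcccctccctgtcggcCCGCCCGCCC
Ogn (osteoglycin, chr13:49607765-49608014): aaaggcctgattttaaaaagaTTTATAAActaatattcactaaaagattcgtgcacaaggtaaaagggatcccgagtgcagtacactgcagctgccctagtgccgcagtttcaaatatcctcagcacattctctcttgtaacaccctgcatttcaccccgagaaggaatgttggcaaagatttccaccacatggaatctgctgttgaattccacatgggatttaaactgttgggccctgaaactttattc
Aspn (asporin, chr13:49544193-49544442): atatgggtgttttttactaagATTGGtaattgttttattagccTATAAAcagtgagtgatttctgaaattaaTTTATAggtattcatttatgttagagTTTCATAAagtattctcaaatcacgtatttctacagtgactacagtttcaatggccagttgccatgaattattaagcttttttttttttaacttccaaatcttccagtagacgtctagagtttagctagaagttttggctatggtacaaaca
RefSeq's table held 9 such windows for 8 of the 10 members. The GC content was 64.4% for Bgn and 51.2% for Fmod, against 42.0% for Ogn and 30.0% for Aspn, with a median of 52.4% over 32851 windows of the same length. The E-box, bound by clock activators, had no match in the 9 windows and was in 6.0% of all windows. A D-box, bound by PAR bZIP factors such as DBP, was in 1 of the 9 (Aspn) and in 3.1% of all. TATA boxes were in 2 of the 9 (Ogn and Aspn) and in 12.4% of all. CCAAT boxes were in 3 of the 9 (Kera, Aspn and Prelp) and in 33.8% of all, and GC boxes in 1 (Bgn) and in 32.7% of all. A match only describes these letters.

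All 10 members were expressed above 1 RPKM in every library and passed the filter for testing. Decorin dominated: Dcn ranked 45 of 13490 tested genes by mean RPKM and had the highest level of the 10 members in each of the 6 libraries. Fmod, Bgn and Lum followed in that order in every library, and Aspn, Omd and Epyc had the 3 lowest levels in that order in every library. Ogn, Prelp and Kera, with mean levels of 39.8, 34.4 and 31.1 RPKM, changed places between libraries and were not separated by their spread. Keratocan, often used as a marker of corneal stromal cells, therefore stood at rank 6 or 7 in whole-eye RNA.

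**Figure D1:**
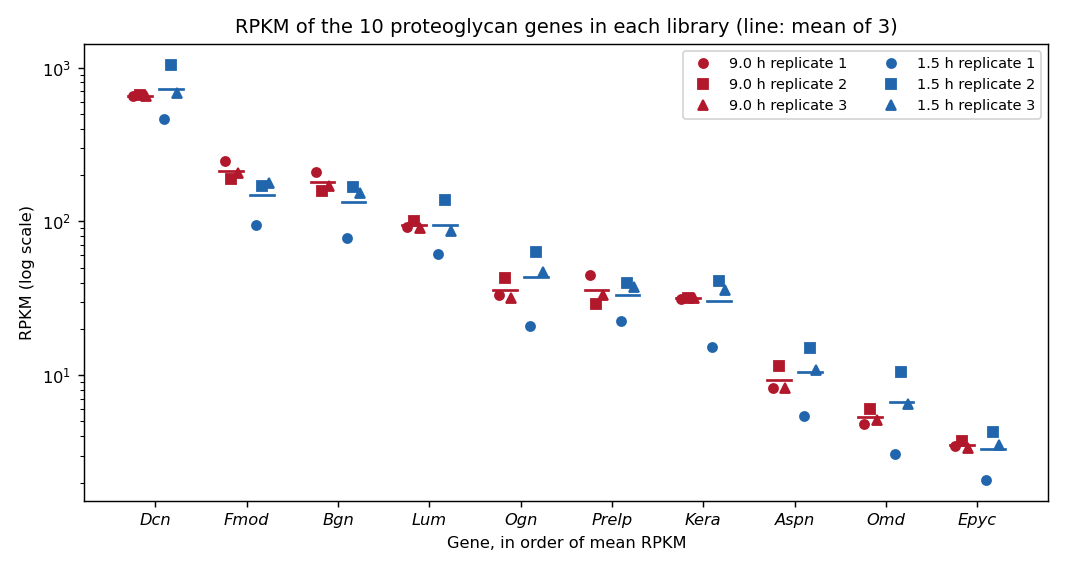
RPKM (log axis) of the 10 proteoglycan genes, ordered by mean level, in the 3 libraries at 9.0 h (red) and the 3 at 1.5 h (blue), with a line at each mean. The point of 1.5 h replicate 1 is the lowest for every gene, and the 9.0 h points lie close together for Dcn and Kera.

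None of the 10 members passed the test between 9.0 h and 1.5 h, made with limma on log2(RPKM + 0.1) over 13490 genes and called at an adjusted p of 0.05. Their limma adjusted p ran from 0.398 to 0.965, and 0.222% of all tested genes were called. At an unadjusted limma p under 0.05, 1 member passed, against 11.1% of all tested genes. It was Fmod, with 0.031. The members' median log2 fold change (9.0 h minus 1.5 h) was 0.09, with 6 above 0 and 4 below, against a median of −0.0031 over all tested genes. Fmod was also the only member whose libraries did not overlap between the times, against 18.2% of tested genes in either direction and 9.78% higher at 9.0 h. In whole-eye RNA, fewer cells of a type and less RNA per cell cannot be told apart.

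Class I comes first. Dcn encodes decorin, which binds collagen and growth factors of the TGF-beta family. It had 650.3, 663 and 655 RPKM at 9.0 h, and 460.1, 1042 and 679 RPKM at 1.5 h (replicates 1 to 3). The 9.0 h values were nearly equal and lay inside the range of the 1.5 h values. The means were 656 ± 6.49 RPKM at 9.0 h and 727 ± 294 RPKM at 1.5 h (SD, n = 3 each), and the log2 fold change was −0.07 ± 0.26 SE (95% interval −0.64 to 0.50, limma adjusted p = 0.946).

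Bgn encodes biglycan, the close relative of decorin that also binds innate immune receptors. It had 209, 157 and 170.2 RPKM at 9.0 h, and 78.0, 166 and 153 RPKM at 1.5 h. Here 9.0 h replicate 1 was the highest library, 1.5 h replicate 1 was the lowest, and the times overlapped. The log2 fold change was 0.50 ± 0.26 SE (95% interval −0.08 to 1.08, limma adjusted p = 0.533). Aspn encodes asporin, which has an aspartate-rich end in place of the sugar chains of its relatives. It had 8.30, 11.5 and 8.22 RPKM at 9.0 h, and 5.42, 15.1 and 10.8 RPKM at 1.5 h, so both the lowest and the highest values were at 1.5 h. Its log2 fold change was −0.06 ± 0.32 SE (limma adjusted p = 0.965).

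Among class II genes, Fmod encodes fibromodulin, abundant in tendon and sclera, which binds type I collagen. It had 247, 189.6 and 205 RPKM at 9.0 h, and 94.7, 169 and 178 RPKM at 1.5 h. Every 9.0 h library was above every 1.5 h library, by a narrow margin between 9.0 h replicate 2 and 1.5 h replicate 3. The means were 214 ± 29.6 RPKM at 9.0 h and 147 ± 45.8 RPKM at 1.5 h (SD, n = 3 each). The log2 fold change was 0.58 ± 0.23 SE (95% interval 0.06 to 1.10, limma adjusted p = 0.398).

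Lum encodes lumican, the keratan sulfate proteoglycan of the corneal stroma that is also found in skin and tendon. It had 91.4, 99.7 and 91.1 RPKM at 9.0 h, and 61.6, 138 and 86.6 RPKM at 1.5 h. The 9.0 h libraries lay between 1.5 h replicates 2 and 3. Its log2 fold change was 0.06 ± 0.24 SE (95% interval −0.48 to 0.60, limma adjusted p = 0.951).

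Kera encodes keratocan, whose loss flattens the cornea in people with cornea plana. It had 31.4, 31.9 and 31.6 RPKM at 9.0 h, and 15.2, 40.6 and 35.6 RPKM at 1.5 h. The 3 libraries at 9.0 h were nearly identical, with a coefficient of variation of 0.8% at 9.0 h and 44.3% at 1.5 h. The log2 fold change was 0.18 ± 0.31 SE (95% interval −0.53 to 0.89, limma adjusted p = 0.881).

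Prelp encodes a class II protein with a basic end that binds heparan sulfate. It had 44.5, 29.2 and 33.3 RPKM at 9.0 h, and 22.6, 39.4 and 37.3 RPKM at 1.5 h. The times overlapped, and the highest value was in 9.0 h replicate 1. Omd encodes osteomodulin, known from bone and tooth matrix. It had 4.8, 5.99 and 5.14 RPKM at 9.0 h, and 3.07, 10.4 and 6.48 RPKM at 1.5 h. The spread of Omd at 1.5 h was the widest of the 10 members, with a coefficient of variation of 55.4%. The log2 fold changes were 0.13 ± 0.23 SE for Prelp and −0.16 ± 0.37 SE for Omd (limma adjusted p = 0.88 and 0.909).

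Of class III, Ogn encodes osteoglycin, also called mimecan, a keratan sulfate proteoglycan of the cornea. It had 32.9, 43.1 and 31.9 RPKM at 9.0 h, and 21.0, 63.1 and 46.5 RPKM at 1.5 h. Apart from 1.5 h replicate 1, each 1.5 h library was above each 9.0 h library. Its log2 fold change over all 6 libraries was −0.15 ± 0.36 SE (95% interval −0.97 to 0.67, limma adjusted p = 0.915). Epyc encodes epiphycan, best known from growth plate cartilage. It had 3.44, 3.73 and 3.37 RPKM at 9.0 h, and 2.08, 4.28 and 3.51 RPKM at 1.5 h, an estimated 116 to 284 reads per library. Its times overlapped and its log2 fold change was 0.15 ± 0.24 SE (limma adjusted p = 0.864).

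Bone and cartilage markers were looked at beside Omd, Ogn and Epyc, since these 3 are named for those tissues. The 4 bone genes Bglap, Ibsp, Dmp1 and Sp7 summed to 0.55 to 0.92 RPKM at 9.0 h and 0.84 to 0.93 RPKM at 1.5 h, and Ibsp was listed at 0 in all 6 libraries. Of 5 cartilage genes, Acan (aggrecan) and Snorc were below 1 RPKM in every library. The list summed to 19.1 to 25.1 RPKM at 9.0 h and 15.0 to 24.0 RPKM at 1.5 h. It was led by Col9a1, which is also a vitreous collagen, and Sox9. Matn3 had 1.24 to 1.55 RPKM at 9.0 h and 1.80 to 3.41 RPKM at 1.5 h. The values of Omd, Ogn and Epyc thus stood in libraries where each bone marker was below 1 RPKM. The cartilage genes Col9a1, Matn3 and Sox9 were above 1 RPKM in every library.

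Summed over the 10 members, the level was 1323, 1235 and 1235 RPKM at 9.0 h, and 763.7, 1688 and 1237 RPKM at 1.5 h. The 9.0 h sums lay close together, between the lowest sum, of 1.5 h replicate 1, and the highest, of 1.5 h replicate 2. Decorin alone made up 49.2%, 53.7% and 53.0% of the sum at 9.0 h, and 60.3%, 61.7% and 54.9% at 1.5 h. Its share was lower in each 9.0 h library than in each 1.5 h library. The share of Fmod was 18.7%, 15.3% and 16.6% at 9.0 h, and 12.4%, 10.0% and 14.4% at 1.5 h, and that of Bgn was 15.8%, 12.7% and 13.8% at 9.0 h, and 10.2%, 9.85% and 12.4% at 1.5 h. Both shares were higher in each 9.0 h library than in each 1.5 h library. By class, class II genes took 28.9% to 31.7% of the sum at 9.0 h and 23.5% to 27.8% at 1.5 h. Of the class II genes only Fmod had a share that separated the times, since those of Lum, Kera, Prelp and Omd each overlapped. Class I genes took 65.6% to 67.5% at 9.0 h and 68.2% to 72.5% at 1.5 h. Within class I, the shares of Dcn and Bgn differed in opposite directions, and that of Aspn overlapped. Class III genes took 2.75% to 3.79% at 9.0 h and 3.02% to 4.05% at 1.5 h, where the times overlapped. Shares add up to a fixed whole, so they do not move independently of each other. They were not tested, and 18.2% of single tested genes did not overlap between the times.

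**Figure D2:**
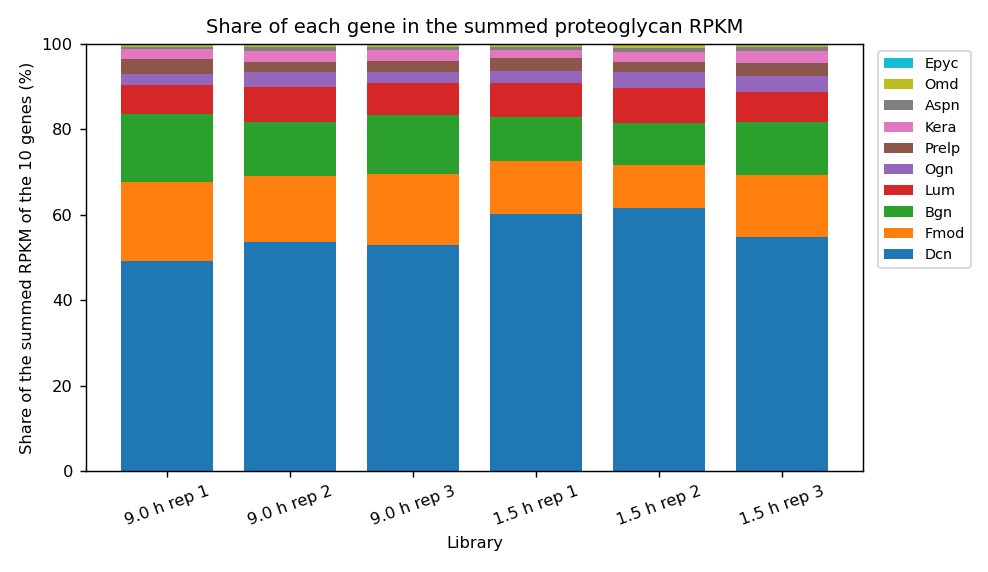
Share (percent) of each gene in the summed RPKM of the 10 proteoglycan genes, by library, with the 9.0 h libraries left of the 1.5 h libraries. The blue Dcn segment is 49.2% to 53.7% at 9.0 h and 54.9% to 61.7% at 1.5 h, and the orange Fmod and green Bgn segments are larger at 9.0 h.

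Ratios within a library do not depend on its depth. Of the 45 pairs of members, 8 (17.8%) had a ratio that did not overlap between the times, against 19.7% over all pairs of tested genes, so the number of such pairs was near the background. Without 1.5 h replicate 1 it was 20 of 45 (44.4%), against 40.1% over all pairs, again near the background. The Fmod to Dcn ratio was 0.379, 0.286 and 0.313 at 9.0 h, and 0.206, 0.162 and 0.262 at 1.5 h, and the Bgn to Dcn ratio averaged 0.273 ± 0.0433 at 9.0 h and 0.185 ± 0.0358 at 1.5 h (SD, n = 3 each). The Lum to Dcn ratio was 0.141, 0.15 and 0.139 at 9.0 h, and 0.134, 0.132 and 0.127 at 1.5 h. These 3 ratios were higher at 9.0 h in every library, and the other 5 non-overlapping ratios were all of Prelp, Omd or Epyc to Fmod or Bgn and lower at 9.0 h. The Lum to Dcn ratio, though separated between the times, varied little, with the highest 1.18 times the lowest over 6 libraries. The highest level was 2.23 times the lowest for Lum and 2.27 times for Dcn. So small a range was not particular to this pair: it was 1.15 for Aspn to Ogn, 1.19 for Omd to Ogn and 1.19 for Bgn to Fmod. Single ratios were not tested: an exact permutation test of 3 libraries against 3 cannot go below p = 0.1, and no model was fitted to them.

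Across libraries Dcn, Lum, Kera, Epyc, Aspn, Omd and Ogn varied alike, and Fmod, Bgn and Prelp stood apart from most of them. The following Pearson r are over log2(RPKM + 0.1) in 6 libraries and are a description only, since all genes share the same libraries. The highest of the 45 values was 0.992 for Ogn and Aspn, and the other pairs of the chromosome 13 cluster had 0.984 (Ogn and Omd) and 0.976 (Aspn and Omd). Without 1.5 h replicate 1 these 3 pairs had 0.982, 0.965 and 0.948. On chromosome 10, Kera and Epyc had 0.981, and the pairs within its 4 genes reached down to 0.869 (Kera and Dcn). High values were not limited to neighbours, with 0.98 for Fmod and Bgn on different chromosomes and 0.949 without 1.5 h replicate 1 for Dcn and Omd. The 4 lowest values were those of Fmod with Omd (0.441), Ogn (0.46), Dcn (0.477) and Aspn (0.482). Without 1.5 h replicate 1 they were −0.815, −0.843, −0.614 and −0.832, so that the positive values rested on that library.

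**Figure D3:**
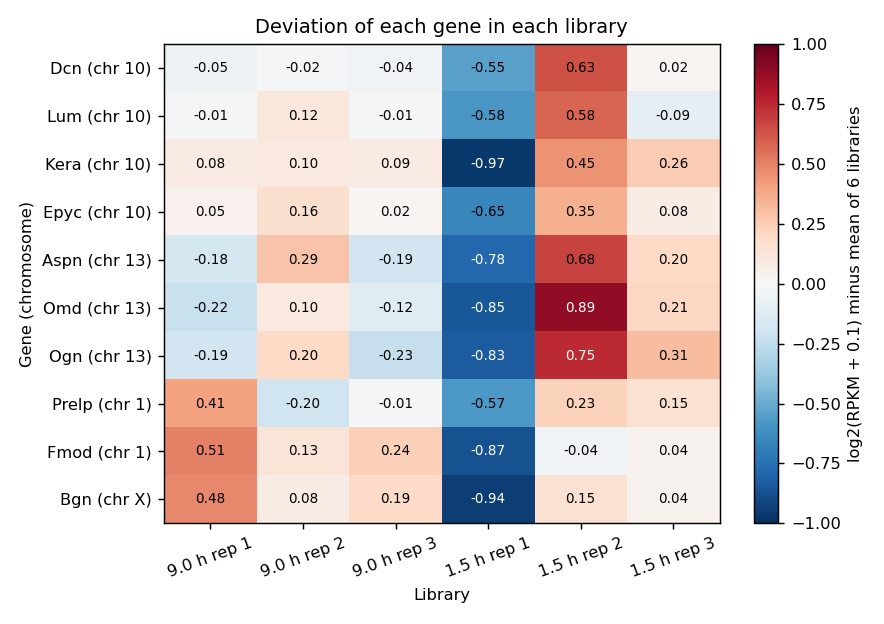
Deviation of each gene, in log2(RPKM + 0.1), from its mean over the 6 libraries, with genes grouped by chromosome and the 9.0 h libraries left of the 1.5 h libraries. The column of 1.5 h replicate 1 is negative for all 10 genes (−0.97 to −0.55), and 1.5 h replicate 2 is the highest for the 7 genes of chromosomes 10 and 13.

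**Figure D4:**
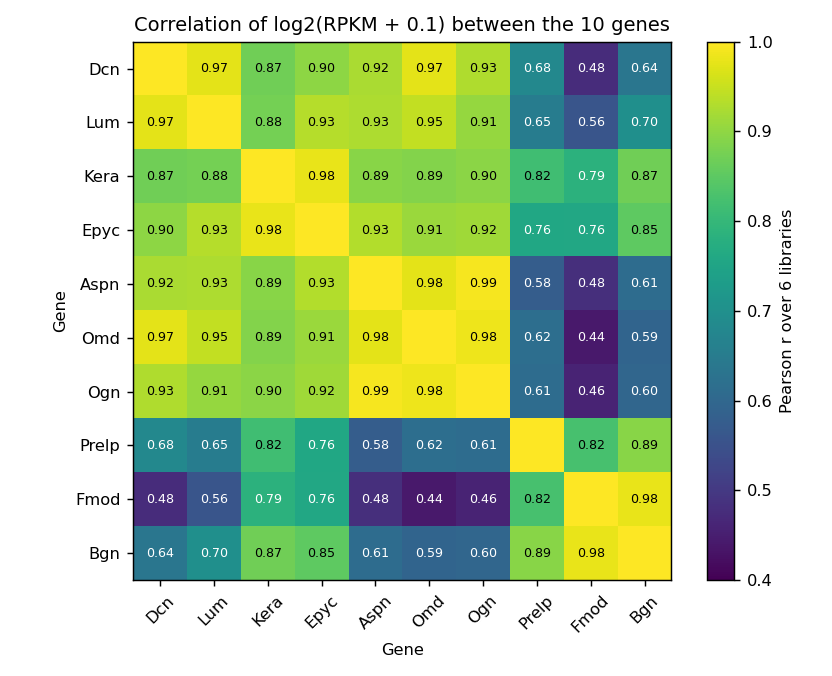
Pearson r between the 10 genes over log2(RPKM + 0.1) in 6 libraries, in order of chromosome (10, 13, 1, X). Aspn, Omd and Ogn form a block of 0.976 to 0.992, and Fmod has 0.98 with Bgn and 0.441 with Omd.

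The result turned on 1.5 h replicates 1 and 2, the lowest and highest libraries of most members. Replicate 1 was set apart by the members' own low values, so leaving it out lowers the log2 fold change of every member. The values without it, p-values included, describe that dependence and are no independent support for a fall. Without replicate 1 the members' median log2 fold change (9.0 h minus 1.5 h) was −0.24, with 8 below 0. Fmod and Bgn were above 0 at 0.29 and 0.15, and the median over all tested genes was −0.01. The largest falls were those of the chromosome 13 genes, by 0.63 for Omd, 0.60 for Ogn and 0.46 for Aspn on the log2 scale. Omd, Ogn and Aspn passed in the limma fit with trend and robust settings (limma adjusted p = 0.00553, 0.00481 and 0.0484), where 4.27% of all tested genes were called lower. In that fit the median total degrees of freedom were 40470, against 10.5 with all 6 libraries, so its p-values treat the variance as known. With limma's standard variance model the same fold changes had limma adjusted p = 0.0901, 0.0865 and 0.19, no member passed, and 3.06% of all tested genes did.

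Also without 1.5 h replicate 1, the libraries did not overlap between the times for Kera, Dcn, Ogn and Omd, all lower at 9.0 h, against 19.4% of tested genes lower in that way, and for Fmod, higher at 9.0 h, against 18.8% of tested genes higher. With 3 libraries against 2 such separations are common. Leaving out 1.5 h replicate 2 in place of replicate 1 moved the values the other way, to 0.24 for Omd, 0.19 for Ogn, 0.27 for Aspn and 0.23 for Dcn. The direction of every member other than Fmod and Bgn thus changed with the choice of library, and the log2 fold change of Fmod stayed between 0.29 and 0.75 and that of Bgn between 0.15 and 0.70 when any 1 library was left out.

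Markers of several other tissues, though not of all, moved with 1.5 h replicate 1. All 5 skeletal muscle genes (Acta1, Ckm, Myh4, Myh13 and Tnnt3) had their lowest value there, against 27.0% of all tested genes. So did 3 of 4 tendon genes, 4 of 5 lens genes, 3 of 6 corneal stroma genes and 4 of 8 fibroblast genes. Of the tested genes of other lists, it was 2 of 4 for pigment cells and 2 of 4 for smooth muscle. It was 1 of 3 for cartilage, 1 of 2 for blood and 0 of 4 for corneal epithelium. The summed muscle level was 806 to 908 RPKM at 9.0 h and 404 to 779 RPKM at 1.5 h, and the tendon sum, which includes tenomodulin (Tnmd) and thrombospondin 4 (Thbs4), was 63.5 to 80.9 RPKM at 9.0 h and 40.1 to 77.6 RPKM at 1.5 h. The lens sum, nearly all Cryaa and Crybb2, was 73803 to 87465 RPKM at 9.0 h and 54834 to 70369 RPKM at 1.5 h, and the fibroblast sum, led by Col1a1 and Col1a2, was 619 to 1024 RPKM at 9.0 h and 321 to 553 RPKM at 1.5 h. Corneal stroma genes summed to 2010 to 2590.1 RPKM at 9.0 h and 2044 to 3838 RPKM at 1.5 h. That sum was mostly Aldh3a1 (also abundant in corneal epithelium) and Ptgds. Of the 6 stroma genes, 1 (Angptl7) was higher at 9.0 h without overlap and 1 (Thbd) was lower. Over all tested genes, 18.2% did not overlap in either direction. Corneal epithelial genes, led by Krt12 and Krt5, summed to 2669 to 3359 RPKM at 9.0 h and 2249 to 3203 RPKM at 1.5 h. The muscle, lens and fibroblast sums did not overlap between the times, but the separation of the muscle and lens sums rested on 1 gene each. Without Acta1 the muscle sum was 321 to 392 RPKM at 9.0 h and 217 to 477 RPKM at 1.5 h, and without Cryaa the lens sum was 33235 to 42308 RPKM at 9.0 h and 37417 to 40057 RPKM at 1.5 h. Without Col1a1 the fibroblast sum was 378 to 571 RPKM at 9.0 h and 252 to 376 RPKM at 1.5 h, a narrow separation of 378.16 against 376.26 RPKM. These sums without the leading gene were added after the values were seen. Of the 8 fibroblast genes, 3 (Col1a1, Col1a2 and Fbln1) did not overlap, all higher at 9.0 h, against 9.78% of tested genes higher in that way. Col1a1 and Col1a2 are also counted among the collagens below. The sums of pigment cell genes led by Dct and Mlana (499 to 576 RPKM at 9.0 h, 533 to 779 RPKM at 1.5 h), smooth muscle genes led by Acta2 and Rgs5 (126 to 139 RPKM at 9.0 h, 123 to 183 RPKM at 1.5 h) and blood genes led by Beta-s and Alas2 (85.5 to 120.2 RPKM at 9.0 h, 43.7 to 375 RPKM at 1.5 h) overlapped between the times. Hba-a1, Hba-a2 and Hbb-b1 were listed at 0 in all 6 libraries. The part of these tissues in the proteoglycan values was not tested.

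The collagens that these proteoglycans bind were compared as a list of 11, all of which were tested. None was called, and 9 had an unadjusted limma p under 0.05, against 11.1% of all tested genes. All 11 had a log2 fold change above 0, against 49.4% of all tested genes. Their median was 0.62, and 0.64 without 1.5 h replicate 1, against 0.09 and −0.24 for the proteoglycans. Libraries did not overlap for 8 of the 11, all higher at 9.0 h, against 9.78% of tested genes higher in that way. Col1a1, a chain of type I collagen, had 453, 241 and 277 RPKM at 9.0 h, and 69.1, 105 and 177 RPKM at 1.5 h (log2 fold change 1.52 ± 0.34 SE, limma adjusted p = 0.139). Col1a2, the other chain, had 376, 217 and 233 RPKM at 9.0 h, and 91.9, 136 and 215 RPKM at 1.5 h (log2 fold change 0.94 ± 0.30 SE, limma adjusted p = 0.285). In both genes 9.0 h replicate 1 was the highest library, as it was for Fmod and Bgn. Whether the collagens and the proteoglycans differ in their change was not tested.

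**Figure D5:**
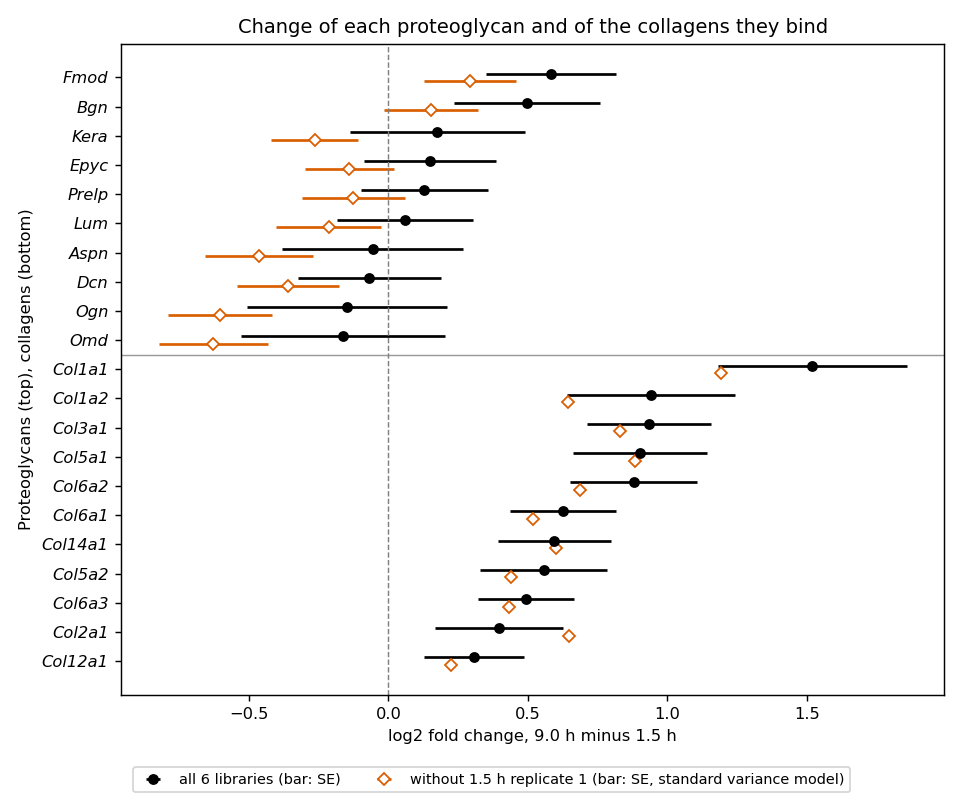
Log2 fold change (9.0 h minus 1.5 h) of each proteoglycan gene (top) and of the 11 collagens (bottom), with all 6 libraries (black, bars are SE) and without 1.5 h replicate 1 (open orange diamonds, SE bars for the proteoglycans). Without that library 8 proteoglycans are below 0, whereas all 11 collagens are above 0 in both fits.

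Relatives outside the 10 members were measured as well. Of 8 such genes 7 were tested, none was called, and 6 had a log2 fold change above 0, against 49.4% of all tested genes. Their median was 0.36, and 0.16 without 1.5 h replicate 1. At an unadjusted limma p under 0.05, 2 passed, against 11.1% of all tested genes. Libraries did not overlap for 2 (Podn and Tsku), both higher at 9.0 h, against 9.78% of tested genes higher in that way. Chad, which encodes chondroadherin of cartilage and tendon, had 52.9, 34.3 and 44.2 RPKM at 9.0 h, and 20.0, 46.4 and 36.9 RPKM at 1.5 h. Optc, which encodes opticin of the vitreous and is the chromosomal neighbour of Prelp, had 36.5, 35.3 and 33.7 RPKM at 9.0 h, and 24.0, 27.5 and 35.8 RPKM at 1.5 h. Both genes overlapped between the times and were at the level of Kera, Prelp and Ogn (log2 fold changes 0.41 ± 0.28 SE and 0.29 ± 0.16 SE, limma adjusted p = 0.65 and 0.553).

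The enzymes that build the sugar chains showed no called change. For keratan sulfate, 13 of 15 genes were tested, with 0 called and a median log2 fold change of 0.05 (0.08 without 1.5 h replicate 1). An unadjusted limma p under 0.05 was found for 2, against 11.1% of all tested genes. Libraries did not overlap for 1 gene higher at 9.0 h (Chst5, below) and 1 lower (St3gal1), against 18.2% of tested genes in either direction. The 2 most abundant were Mgat1, an enzyme of N-glycan branching, with means of 37.8 RPKM at 9.0 h and 35.4 RPKM at 1.5 h, and St3gal1, a sialyltransferase, with 13.4 RPKM at 9.0 h and 17.0 RPKM at 1.5 h (log2 fold changes 0.11 ± 0.18 SE and −0.35 ± 0.15 SE, limma adjusted p = 0.867 and 0.419). Outside the rule for naming genes, and chosen after its values were seen, is Chst5, the sulfotransferase needed for corneal keratan sulfate in mice. It had 12.2, 11.0 and 13.8 RPKM at 9.0 h, and 7.06, 7.30 and 8.12 RPKM at 1.5 h. All 9.0 h libraries were above all 1.5 h libraries, as in 9.78% of tested genes, and 1.5 h replicate 1 was close to the other 1.5 h libraries. The log2 fold change was 0.71 ± 0.14 SE, and 0.67 without 1.5 h replicate 1, but it did not pass over all genes (limma adjusted p = 0.0979).

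For the linkage region and the chondroitin or dermatan sulfate chains, 20 of 21 genes were tested, with 0 called and a median log2 fold change of 0.07. At an unadjusted limma p under 0.05, 1 passed, against 11.1% of all tested genes. The most abundant were B3gat3, which adds the glucuronic acid of the linkage region, with means of 46.2 RPKM at 9.0 h and 43.2 RPKM at 1.5 h, and Chpf, a chondroitin polymerizing factor, with 26.7 RPKM at 9.0 h and 21.4 RPKM at 1.5 h. Of 12 genes that supply sulfate and sugar donors 11 were tested, with 0 called, 0 at an unadjusted limma p under 0.05 and a median of −0.11. They were led by Papss1, a synthase of the sulfate donor PAPS, with means of 27.4 RPKM at 9.0 h and 31.3 RPKM at 1.5 h, and by Slc35b2, the transporter that brings PAPS into the Golgi, with 22.5 RPKM at 9.0 h and 20.1 RPKM at 1.5 h. The medians of both lists were near that of all tested genes.

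Of 18 processing enzymes, growth factors and receptors known to act with the family, 15 were tested and 0 were called. An unadjusted limma p under 0.05 was found for 4, against 11.1% of all tested genes. The median log2 fold change of the 15 was 0.23, and 0.04 without 1.5 h replicate 1. The most abundant were Pcolce, an enhancer of procollagen cleavage, and Mmp2, a gelatinase. Pcolce had 155, 119 and 141 RPKM at 9.0 h, and 71.5, 113 and 114 RPKM at 1.5 h, and Mmp2 had 62.0, 44.4 and 48.5 RPKM at 9.0 h, and 30.2, 36.5 and 42.5 RPKM at 1.5 h. In both genes every 9.0 h library was above every 1.5 h library, as in 9.78% of tested genes (limma adjusted p = 0.391 and 0.331).

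The tested genes outside the family whose pattern over the 6 libraries was most like the mean of the 10 members were Hs3st3a1, Mmgt2, Myl6b, Lrrc46 and Got1, with Pearson r of 0.994, 0.992, 0.99, 0.989 and 0.989. Of 13480 tested genes outside the 10 members, 516 (3.8%) had r above 0.9. Hs3st3a1, a heparan sulfate sulfotransferase, had 1.70, 1.70 and 1.66 RPKM at 9.0 h, and 1.03, 2.01 and 1.68 RPKM at 1.5 h, low in 1.5 h replicate 1 and high in 1.5 h replicate 2 like the members. Among the members themselves, Epyc (0.991) and Kera (0.984) were nearest to the mean of all 10 and Fmod (0.741) was farthest from it.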

How the data were processed

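The tools named for these data are GSNAP (an aligner) and HTSeq (a read counter), and the build is mm9, per the submitters' processing notes. Versions, gene models, strandedness and how multiply matching reads were handled were not given in the sources used here. The authors deposited 1 table of RPKM per library without naming the unit in its header. It was inferred from the values, which were not whole and summed to 393433 to 546836 per library. A count-based test therefore does not apply. Reads per library were estimated in genes of a single GENCODE M21 transcript length of at least 500 nt, where 70.3% to 73.4% of low values lay within 0.1 read of a whole number. Library pairs correlated across genes with r of 0.948 to 0.989, so no library was counted as a duplicate.

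The 13490 genes that reached 1 RPKM in at least 3 of the libraries were fitted with limma 3.58.1 in R 4.3.3 (eBayes with trend and robust settings) on log2(RPKM + 0.1), two-sided, with Benjamini-Hochberg adjustment over all of them. Fold changes on this scale understate those of low genes. The fit was tested on simulated data. Overlapping genes were taken from GENCODE M21, and copies were sought with minimap2 2.31 in its transcripts. RefSeq's GRCm38.p6, not the build of the files, was used for names, gene order and start sequences.

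The members, lists and tests were chosen with earlier results of these data known. Genes named from a list are its called members, up to 4, or its 2 most abundant where none was called. The 5 genes of like pattern are those with the highest r. The alternatives were other pseudocounts, filters, scalings, variance settings, a replicate block and leaving out each library. The retinal marker list is not reported here.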

Additional observations from a re-analysis of the deposited data

How the results depend on the processing

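Over 17 alternatives, 0 members passed in 15. The exceptions were leaving out 1.5 h replicate 1, with 3 members (0 to 3 when any 1 library was left out), and the same with quantile normalization, with 1 member (Ogn, log2 fold change −0.65, limma adjusted p = 0.0403). The members' median log2 fold change stayed between −0.24 and 0.32 when 1 library was left out. The count over all genes, 30, was 15 with quantile normalization, 15 with median-of-ratios scaling, 141 with the replicate block and 2 to 1245 with 1 library left out. Without 1.5 h replicate 1 it was also 425, 413 and 488 with median-of-ratios scaling, the standard variance model and quantile normalization, 3 combinations chosen after seeing the data. The cause was not tested.

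Directions: with all libraries, Lum alone changed sign, to −0.091 with quantile normalization. With 1 library left out, the log2 fold change ran from −0.26 to 0.44 for Kera, −0.21 to 0.36 for Lum, −0.36 to 0.23 for Dcn, −0.60 to 0.19 for Ogn, −0.46 to 0.27 for Aspn, −0.13 to 0.27 for Prelp, −0.63 to 0.24 for Omd and −0.14 to 0.36 for Epyc. Kera, Lum, Prelp and Epyc were −0.24, −0.19, −0.11 and −0.12 without 1.5 h replicate 1 under median-of-ratios scaling, −0.26, −0.21, −0.13 and −0.14 under the standard variance model, and −0.32, −0.32, −0.18 and −0.0865 under quantile normalization.

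Replicate numbers are shared between the times, but no label states a pairing. Same-numbered libraries deviated together with r of 0.347, 0.484 and −0.215, and not every library correlated best with its own number. These values neither show nor exclude a pairing. The replicate block called no member, and 141 genes in all, against 30 without it. Depth limits the rarest member, Epyc, to an estimated 116 reads in the library where it had the fewest.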
